A study of Homo sapiens with 8 samples.

Results

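DEAF1, KLHDC4 and ZC3H3 are 3 protein-coding genes on the minus strand whose RNA carried many CLIP peaks of the RNA-binding protein RBM45. Their members are all peaks that overlapped, on the minus strand, the hg19 intervals chromosome 11, 644220 to 695754 (DEAF1, 51.5 kb), chromosome 16, 87741418 to 87799598 (KLHDC4, 58.2 kb), and chromosome 8, 144519825 to 144623623 (ZC3H3, 103.8 kb). These intervals took in 210 of the 210878 stranded peaks of replicate 1, 127 of the 65587 of replicate 2, and 57 of the 13758 deposited pairs of peaks common to both replicates. The genes were chosen by the number of such pairs in 100-kb stretches that they touch, so pair counts, peak densities and matches between replicates describe the choice and were not tested.

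The peaks came from WT HEK293T cells, a widely used cell line derived from human embryonic kidney, transduced with a lentivirus for FLAG-HA-tagged human RBM45. Cells were irradiated with ultraviolet light (300 mJ/cm2 at 254 nm), which fixes proteins to the RNA they touch, and tagged RBM45 was pulled down with an antibody to the HA tag (CLIP). The study has 8 samples, 2 for each of CLIP from METTL3 knockout cells, input from METTL3 knockout cells, CLIP from WT cells and input from WT cells, and all of them carry the tagged RBM45. The 2 WT CLIP lists were used here, while read counts, inputs and knockout samples were not analysed here. The depth behind the lists is therefore unknown, and with 1 list per library no difference has a test across samples. The labels do not say whether replicates were separate cultures.

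RBM45 is an RNA-binding protein with RNA recognition motifs, known from the developing nervous system and from protein inclusions in amyotrophic lateral sclerosis. METTL3 is the catalytic subunit of the enzyme that writes most m6A, a methyl mark on adenosines of messenger RNA and its precursors. DEAF1 encodes a transcription factor with a SAND domain that binds DNA and a MYND zinc finger. KLHDC4 encodes a protein with kelch repeats whose role is little described. ZC3H3 encodes a CCCH zinc-finger protein linked to polyadenylation and nuclear export of messenger RNA.

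All 3 genes are mostly intron. In GENCODE v29, a GRCh38 annotation used here for sizes only, the coding transcript nearest in length to each interval has 12 exons with 2500 bases in DEAF1 (4.87% of its span), 11 exons with 1821 bases in KLHDC4 (3.13%) and 12 exons with 3280 bases in ZC3H3 (3.16%). Peaks covered 3014 bases of DEAF1 in replicate 1 and 1749 in replicate 2, which lie above and below its exon bases. They covered 3937 and 2065 bases of KLHDC4, both above its exon bases, and 3030 and 1673 bases of ZC3H3, both below. Exon positions in hg19 and the sequences under the peaks were not analysed here. These totals therefore do not show how the peaks divide between exons and introns.

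Peaks lay densely in DEAF1 and KLHDC4 and more sparsely in ZC3H3. DEAF1 held 70 peaks in replicate 1 and 45 in replicate 2, or 1.36 and 0.873 per kb. KLHDC4 held 74 and 42, or 1.27 and 0.722 per kb. ZC3H3 held 66 and 40 over a longer interval, or 0.636 and 0.385 per kb. In both lists the order was DEAF1, KLHDC4, ZC3H3. DEAF1 and KLHDC4 lay closer to each other than the lists did within either gene, so their order is within the spread, and ZC3H3 lay below both in each list. The mean of the lists for ZC3H3 was 0.511 ± 0.177 per kb (SD, n = 2), and with the stronger 50% of each list it was 0.212.

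The common pairs separated ZC3H3 further from the other genes. DEAF1 had 23 pairs and KLHDC4 26, in each case 1 pair per 2.24 kb, whereas ZC3H3 had 8 pairs, 1 per 12.97 kb. Neighbouring pairs were a median of 940.5 bases apart in DEAF1, 690 in KLHDC4 and 12226 in ZC3H3. With both peaks of a pair required to be in the stronger 50% of their lists by −log10 p, 15 pairs were left in DEAF1, 19 in KLHDC4 and 4 in ZC3H3.

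On a fixed grid of 100 kb and 1 strand, the window with DEAF1 held 27 pairs, of which 23 lay in the gene, and 8 of the 5259 windows with any pair held as many or more. The window with KLHDC4 held 26 pairs, all of them in the gene. ZC3H3 crosses a grid line. Its window at 144500001 to 144600000 held 7 pairs, all in the gene, and 427 windows held as many or more. The next window, at 144600001 to 144700000, held 26 pairs, but 25 of them lay outside ZC3H3, between 144663661 and 144695501, and 1 lay inside it. The number of pairs in such windows was what the genes were chosen by. Most of these pairs lay inside DEAF1 and KLHDC4, while around ZC3H3 most lay beyond the 5′ end of the gene.

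**Figure D1:**
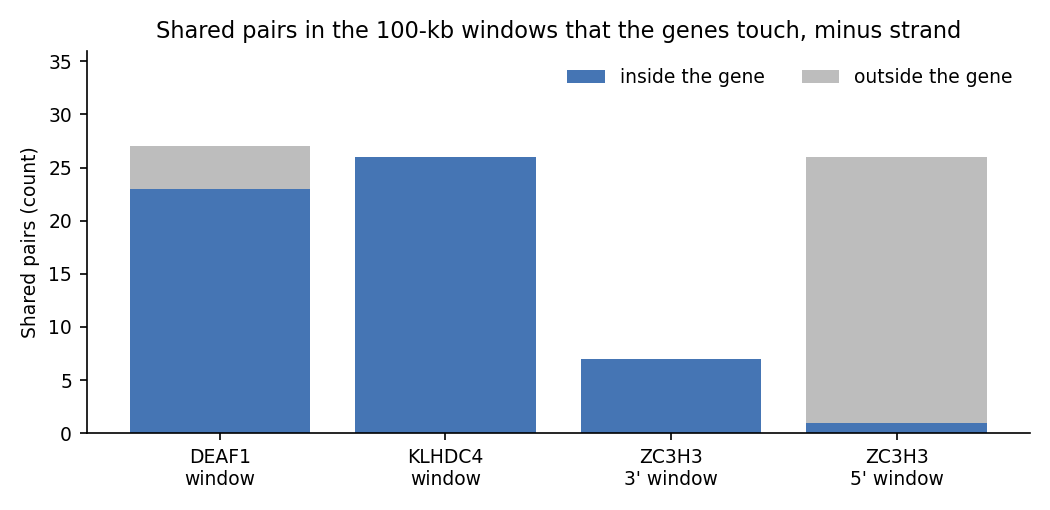
Number of shared pairs (vertical axis, count) in each 100-kb window of the minus strand that a gene touches (horizontal axis), divided into pairs inside and outside the gene. The DEAF1 and KLHDC4 windows hold 23 and 26 pairs inside the genes, and the 5′ window of ZC3H3 holds 1 inside and 25 outside.

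Without regard to pairs, 1 ZC3H3 window held more single peaks than most windows, although per kb ZC3H3 was the sparsest of the 3 genes. This window, at 144500001 to 144600000, held 57 replicate 1 peaks and 36 replicate 2 peaks, all inside the gene. Window counts were not adjusted for the length of gene in a window. The median window with any peak held 6 in replicate 1 and 3 in replicate 2. Of the 20452 such windows of replicate 1, 309 (1.51%) held as many or more, and of the 12713 of replicate 2, 116 (0.912%). For the KLHDC4 window, with 74 and 42 peaks, these shares were 0.626% and 0.535%.

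DEAF1 and KLHDC4 peaks were matched between replicates more often than ZC3H3 peaks. A match means 1 base or more in common on 1 strand. In replicate 2, 29 of 45 DEAF1 peaks (64.4%, 95% exact Clopper-Pearson interval 48.8 to 78.1), 31 of 42 KLHDC4 peaks (73.8%, 58.0 to 86.1) and 13 of 40 ZC3H3 peaks (32.5%, 18.6 to 49.1) were matched, against 28.8% of the whole list. In replicate 1, 28 of 70 DEAF1 peaks (40%, 28.5 to 52.4), 32 of 74 KLHDC4 peaks (43.2%, 31.8 to 55.3) and 11 of 66 ZC3H3 peaks (16.7%, 8.62 to 27.9) were matched, against 8.88% of the whole list. These intervals allow for counting error alone, and neighbouring peaks of 1 gene are not independent. The choice of genes used pairs, so the excess in DEAF1 and KLHDC4 is not a finding, and the replicate 2 share of ZC3H3 was near that of the whole list. With replicate 1 reduced to its 65587 strongest peaks, the ZC3H3 share was 12.5% (5 of 40), against 18.6% of the whole list.

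**Figure D2:**
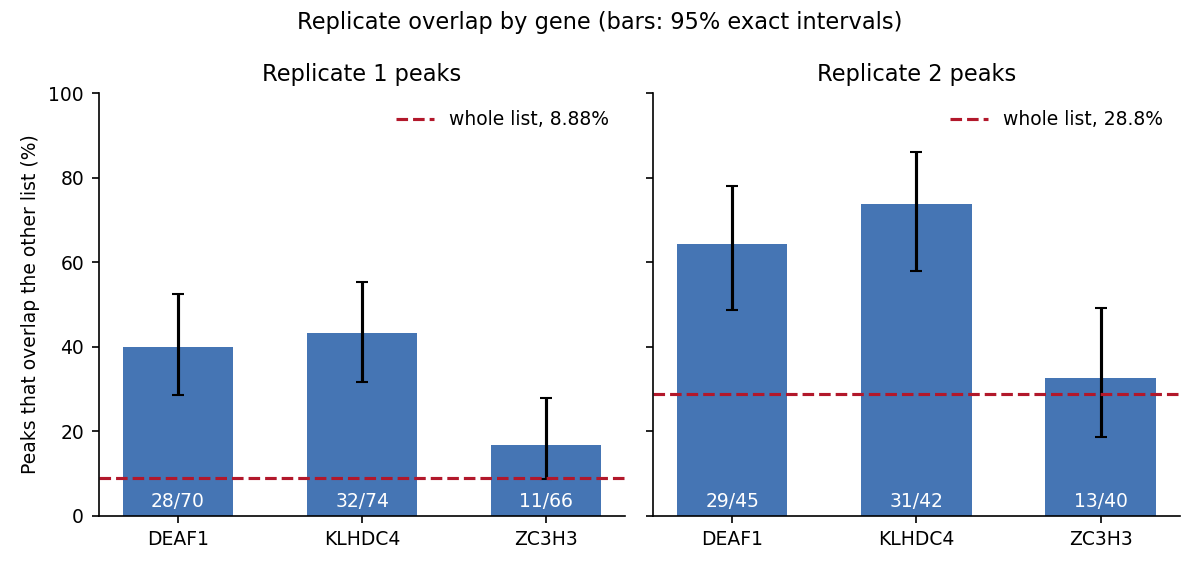
Percentage of the peaks of each gene that overlap a peak of the other replicate (vertical axis), for replicate 1 (left) and replicate 2 (right), with 95% exact intervals and matched/total counts in the bars. DEAF1 and KLHDC4 reach 64.4% and 73.8% in replicate 2, and ZC3H3, at 32.5%, lies near the dashed line of the whole list at 28.8%.

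Most unmatched peaks did not lie directly beside a peak of the other list, but a larger share did than in the whole lists. Of the replicate 2 peaks without a match, 4 of 16 in DEAF1, 4 of 11 in KLHDC4 and 7 of 27 in ZC3H3 were within 100 bases of a replicate 1 peak (25%, 36.4% and 25.9%), against 12.1% of the unmatched peaks of the whole list. Within 500 bases the counts were 15, 10 and 15 (93.75%, 90.9% and 55.6%), and the whole-list share was 39.2%. Of the unmatched replicate 1 peaks, 16.7% in DEAF1, 11.9% in KLHDC4 and 20% in ZC3H3 were within 100 bases of a replicate 2 peak, against 3.74%. Replicate 1 peaks were a median of 395 bases apart in DEAF1, 386.5 in KLHDC4 and 980 in ZC3H3, and the counts were not adjusted for that spacing.

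Over the full lists, median strength was higher in DEAF1 and KLHDC4 than in ZC3H3. The authors' fold enrichment over the caller's background had a median of 3.78 in replicate 1 and 4.44 in replicate 2 for DEAF1, and of 3.92 and 4.81 for KLHDC4. For ZC3H3 the medians were 3.12 and 3.81, the same to 3 digits as those of the whole lists, 3.12 and 3.81. Many ZC3H3 peaks of replicate 1 had exactly the median fold, 3.11955, so the equal medians rest in part on tied values. DEAF1 folds ran from 2.12 to 7.63 in replicate 1 and from 2.26 to 9.11 in replicate 2. KLHDC4 folds ran from 1.82 to 9.13 and from 2.30 to 9.02, and ZC3H3 folds from 2.34 to 5.04 and from 2.47 to 9.82. The ranges of the 3 genes overlap widely. With the stronger 50% of each list, the mean of the replicate medians was 4.36 in DEAF1, 4.56 in KLHDC4 and 4.43 in ZC3H3. The order of DEAF1 and ZC3H3 turned in replicate 2 (4.74 and 4.96) but not in replicate 1 (3.98 and 3.90). The stronger 50% of the whole lists had medians of 3.94 in replicate 1 and 4.60 in replicate 2. In replicate 1 this cut kept 56 of 70 DEAF1 peaks and 26 of 66 ZC3H3 peaks.

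Peaks above 5-fold numbered 10 of 70 and 15 of 45 in DEAF1, 14 of 74 and 14 of 42 in KLHDC4, and 1 of 66 and 9 of 40 in ZC3H3, in replicates 1 and 2 in that order. The shares were 14.3% and 33.3% in DEAF1, 18.9% and 33.3% in KLHDC4, and 1.52% and 22.5% in ZC3H3. Of the whole lists, 9.16% of replicate 1 and 18.0% of replicate 2 peaks were above 5-fold. ZC3H3 thus lay below the whole list in replicate 1 and a little above it in replicate 2, so its place depends on the replicate.

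**Figure D3:**
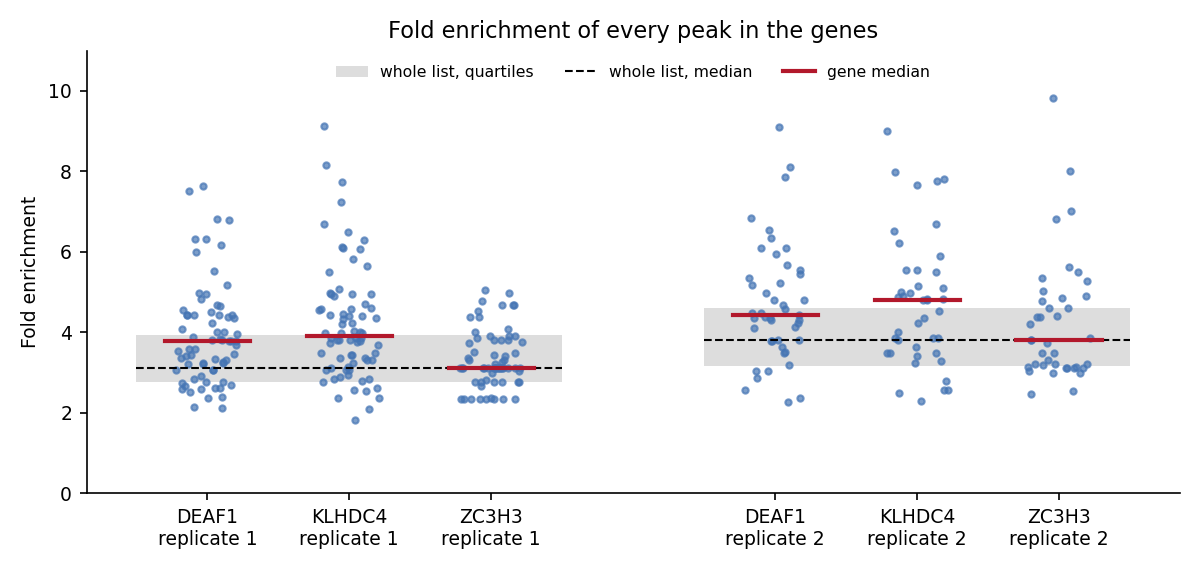
Fold enrichment over the caller's background (vertical axis) of every peak in each gene, with 1 point per peak, in replicate 1 (left) and replicate 2 (right). Gene medians for DEAF1 (3.78 and 4.44) and KLHDC4 (3.92 and 4.81) lie above the dashed medians of the whole lists (3.12 and 3.81), and those of ZC3H3 lie on them.

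By fold, matched peaks were not uniformly the stronger ones, while by median −log10 p they were higher in each gene and list. In DEAF1 replicate 1 the median fold was 3.86 for matched and 3.45 for unmatched peaks, while in replicate 2 it was 4.35 for matched and 4.54 for unmatched peaks. In KLHDC4 it was 3.92 for both kinds in replicate 1, and 4.81 for matched and 4.01 for unmatched peaks in replicate 2. In ZC3H3 matched peaks had the higher median in both lists, 3.75 and 3.12 in replicate 1 and 4.79 and 3.72 in replicate 2, as they did in the whole lists (3.96 and 3.12, then 4.13 and 3.72).

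Peaks were short, and the narrowest had 30 bases in each gene and list. Median widths were 34.5 and 31 bases in DEAF1, 41.5 and 38.5 in KLHDC4 and 31.5 and 34 in ZC3H3, in replicates 1 and 2, against 30 and 31 in the whole lists. The widest DEAF1 peaks had 97 bases in replicate 1 (680335 to 680431) and 104 in replicate 2 (647513 to 647616). The widest ZC3H3 peaks had 127 bases in each list, at 144552897 to 144553023 in replicate 1 and 144588671 to 144588797 in replicate 2.

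The 5′ 50% of DEAF1 held 29 of 70 replicate 1 peaks (41.4%) and 13 of 45 replicate 2 peaks (28.9%). In KLHDC4 it held 40 of 74 (54.1%) and 25 of 42 (59.5%). In ZC3H3 it held 33 of 66 (50%) and 13 of 40 (32.5%). These shares were not tested, since neighbouring peaks of a gene are not independent.

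In DEAF1, peaks of both replicates were found along most of the gene, and the pairs gathered in its middle. The first peak from the 5′ end lay 2.63 kb in for replicate 1 and 3.99 kb in for replicate 2, and the last lay 1.0105 and 0.638 kb from the 3′ end. Both lists had their longest empty stretch near the start, from 7.09 to 14.7 kb from the 5′ end in replicate 1 and from 5.18 to 15.3 kb in replicate 2. The shortest stretch with 19 of the 23 pairs ran from 19.2 to 38.1 kb from the 5′ end, or 36.6% of the gene. This stretch was found from the pairs themselves, so their number in it is partly built in. It also held 40 of the 70 replicate 1 peaks and 26 of the 45 replicate 2 peaks.

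The 5 DEAF1 pairs with the highest lower fold were taken as its clearest sites. The first, at 661518 to 661550, had a fold of 5.99 in replicate 1 and 9.11 in replicate 2, and its replicate 1 peak had the highest score of the gene in that list (−log10 p 20.2). The pair at 667291 to 667326 had folds of 6.31 and 5.19. Those at 662328 to 662360 (4.95 and 4.49) and 663896 to 663925 (4.99 and 4.35) belong with the first to the longest run of the gene, 8 pairs within 3788 bases, each at most 1 kb from the next. The pair at 690560 to 690589 (4.42 and 4.38) was the only pair near the 5′ end, 14.1 kb from the next pair. Peaks at 691777 to 691861 in replicate 1 and 691737 to 691796 in replicate 2 also overlapped there. They shared less than 50% of the replicate 1 peak and so formed no pair. The replicate 2 peak with the highest score, at 672510 to 672548, had a fold of 8.11 and a −log10 p of 25.5, while its replicate 1 partner had 3.23.

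Each gene was divided into 10 equal bins from its 5′ end. The first bin of DEAF1 differed most between the lists. It held 9 replicate 1 peaks, with folds from 2.62 to 7.52, and 1 replicate 2 peak. A replicate 1 peak at 692332 to 692368 had a fold of 7.52, and the nearest replicate 2 peak was 535 bases away. The strongest DEAF1 peak of replicate 1 by fold, at 649394 to 649432 (7.63-fold), also had no partner, with a gap of 264 bases. Of the DEAF1 peaks above 5-fold, 7 of 10 in replicate 1 and 5 of 15 in replicate 2 were unmatched (70% and 33.3%), against 73.8% and 53.8% of such peaks in the whole lists.

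In KLHDC4, the peaks of both replicates concentrated in the middle of the gene. With the gene in 10 equal bins, the fourth to sixth, 17.5 to 34.9 kb from the 5′ end, held 15, 15 and 12 replicate 1 peaks and 8, 8 and 13 replicate 2 peaks. These 3 bins held 20 of the 26 pairs. Peaks reached closer to the start than in the other genes, 0.926 kb from the 5′ end in replicate 1 and 0.482 kb in replicate 2.

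The 5 KLHDC4 pairs named by the same rule, which favours pairs with a high fold in both lists, began with the highest replicate 1 fold of the gene. At 87775419 to 87775484 the folds were 9.13 in replicate 1 and 7.82 in replicate 2, and this replicate 1 peak had the highest score of the gene (−log10 p 22.6). At 87768682 to 87768745 they were 8.15 and 7.76. The pairs at 87765440 to 87765515 (6.06 and 4.996), 87775539 to 87775569 (4.94 and 5.10) and 87777558 to 87777588 (4.95 and 4.81) followed. The last of these had exactly the same first and last base in both lists. The densest run was 3 pairs within 294 bases, from 87775276 to 87775569, and the longest was 6 pairs within 2153 bases, from 87768682 to 87770834.

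Some other KLHDC4 pairs differed in fold. A pair beside one of those sites, with its first base at 87777408 in both lists, had a fold of 2.62 in replicate 1 and 9.02 in replicate 2, the highest replicate 2 fold of the gene. Toward the 3′ end the lists parted. The eighth bin of KLHDC4, 40.7 to 46.5 kb from the 5′ end, held 9 replicate 1 peaks (folds 2.79 to 4.59) and 0 replicate 2 peaks. The widest peak of the 3 genes, 202 bases at 87778412 to 87778613 in replicate 1 (2.85-fold), missed the nearest replicate 2 peak by 41 bases.

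In ZC3H3, peaks were spread over the gene and pairs were isolated. The span from first to last peak was 99.0 kb in replicate 1 and 92.0 kb in replicate 2 of 103.8 kb. The 8 pairs spanned 82.4 kb, and no 2 of them were within 1 kb, the closest being 1283 bases apart. Matched peaks outside the pairs could lie closer. A matched replicate 1 peak at 144567680 to 144567774, in no pair, was within 1 kb of the pair at 144567992 to 144568023. Replicate 2 had the higher fold in all 8 pairs, whereas it did in 10 of 23 DEAF1 pairs, 15 of 26 KLHDC4 pairs and 7330 of all 13758 pairs.

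The first ZC3H3 pair by its lower fold, at 144604750 to 144604780, was the same 31 bases in both lists, with folds of 4.68 in replicate 1 and 5.62 in replicate 2. The pair at 144567992 to 144568023 had 4.37 and 8.02. The pair at 144549621 to 144549651 had 3.75 and 9.82, and both peaks had the highest score of the gene in their list (−log10 p 7.95 and 16.2). The other 2 of the 5 lay at 144588671 to 144588767 (3.21 and 4.79) and 144522352 to 144522416 (2.76 and 3.14). The only replicate 1 peak above 5-fold, at 144567162 to 144567209 (5.04-fold), missed the nearest replicate 2 peak by 1 base. The fourth bin of the gene, 31.1 to 41.5 kb from the 5′ end, held 12 replicate 1 peaks and 1 replicate 2 peak.

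**Figure D4:**
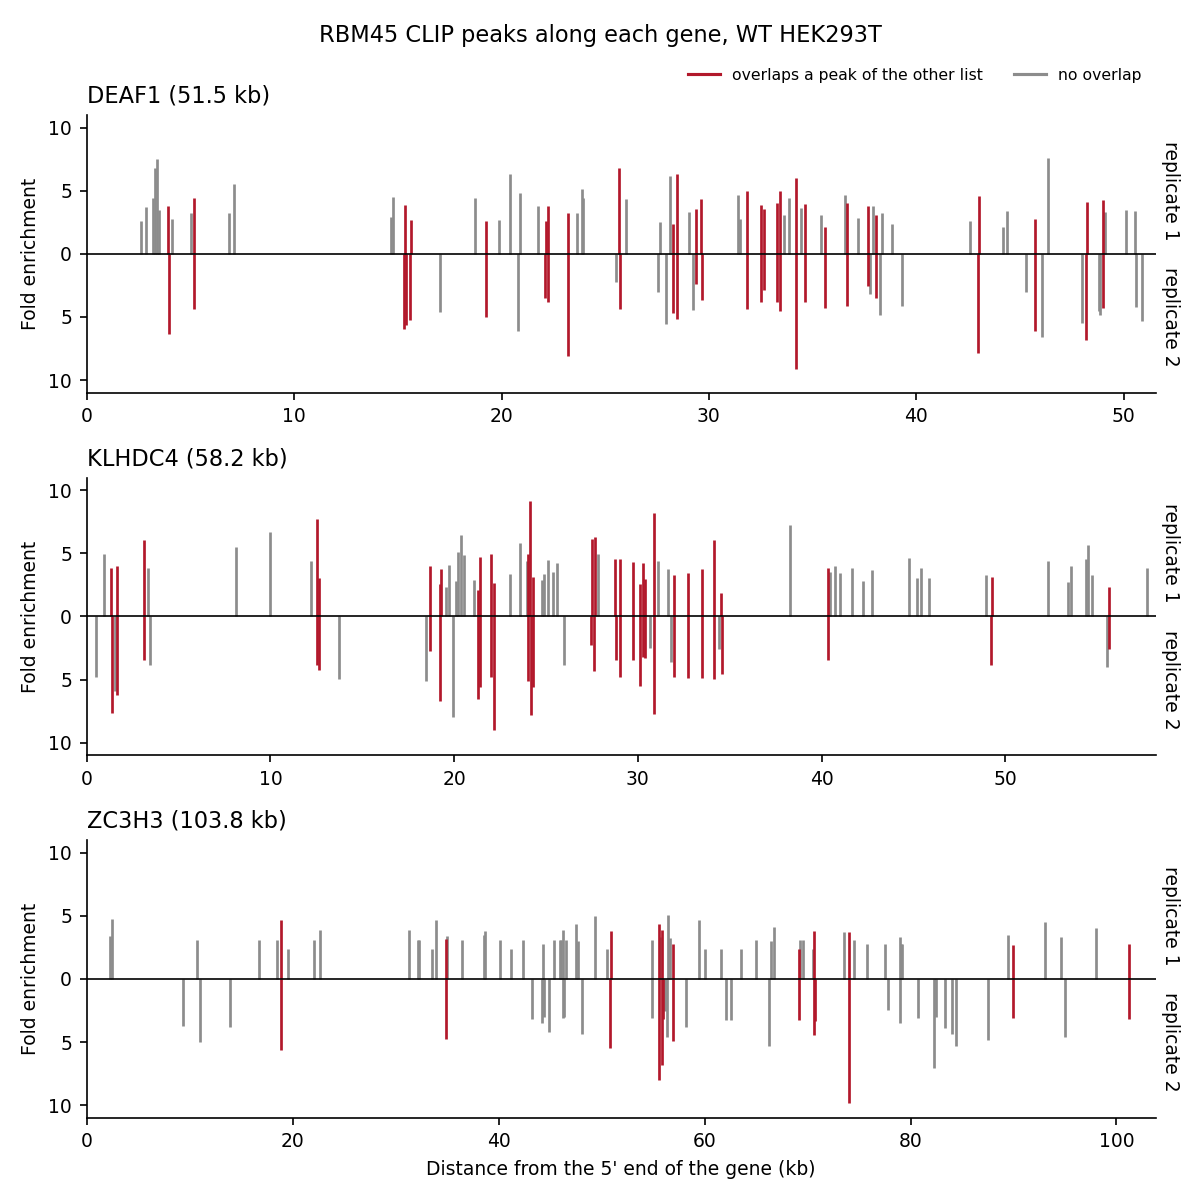
Peaks of replicate 1 (upward) and replicate 2 (downward) by distance from the 5′ end of each gene in kb (horizontal axis), with line length giving the fold enrichment (vertical axis). Peaks that overlap the other list (red) gather between 19.2 and 38.1 kb in DEAF1 and in the fourth to sixth bins of KLHDC4 (17.5 to 34.9 kb), and are scattered in ZC3H3.

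Over all pairs of a gene, positions were close and folds were loosely related. The midpoints of a pair were a median of 3 bases apart in DEAF1, 4 in KLHDC4 and 1.75 in ZC3H3, and 4 over all deposited pairs, which by construction cover at least 50% of the replicate 1 peak. The 2 folds lay within a factor of 2 in 20 of 23 DEAF1 pairs, 21 of 26 KLHDC4 pairs and 7 of 8 ZC3H3 pairs, compared with 90.5% of all pairs. The Spearman correlation of fold across pairs was 0.19 in DEAF1 (n = 23) and 0.01 in KLHDC4 (n = 26), and 0.32 over all 13758. ZC3H3 gave 0.78 over 8 pairs. The points of each gene share 1 pair of libraries, and these values are descriptions only.

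**Figure D5:**
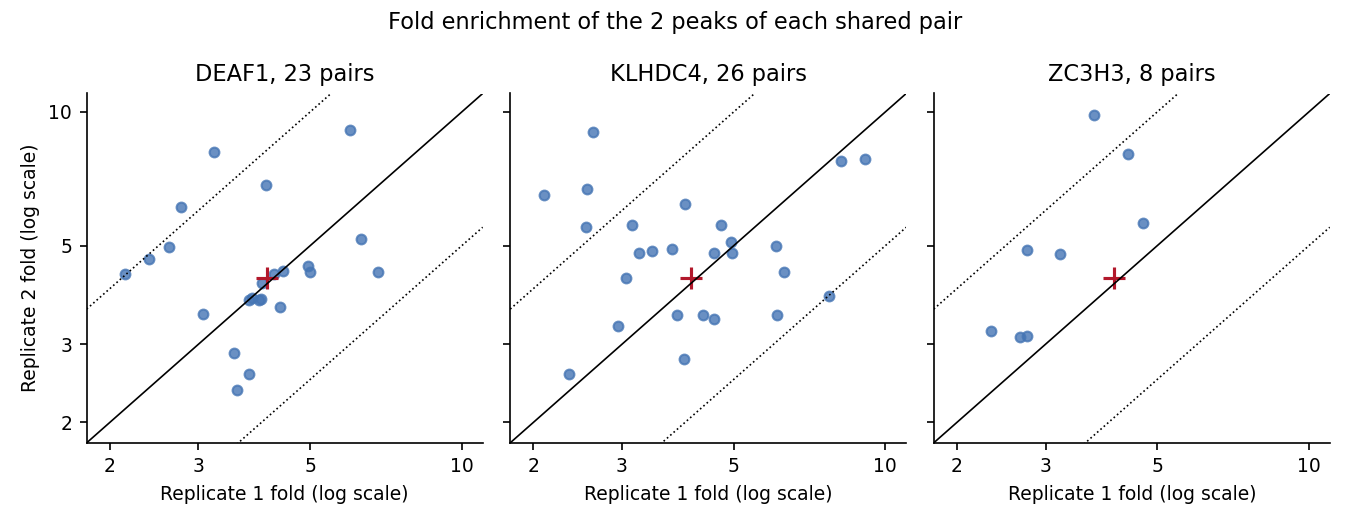
Replicate 2 fold against replicate 1 fold, both on log axes, for the shared pairs of each gene, with 1 point per pair. The solid line marks equal folds, dotted lines a factor of 2, and the cross the medians of all deposited pairs (4.106 and 4.23). All 8 ZC3H3 points lie above the solid line.

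Both peaks exceeded 5-fold in 2 of 23 DEAF1 pairs (8.70%), 2 of 26 KLHDC4 pairs (7.69%) and 0 of 8 ZC3H3 pairs. Of all deposited pairs 13.9% did so, and with counts this small the difference was not tested. Median folds of the paired peaks were 3.96 in replicate 1 and 4.31 in replicate 2 for DEAF1, 3.99 and 4.85 for KLHDC4, and 2.98 and 4.84 for ZC3H3. Over all pairs they were 4.106 and 4.23.

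Listed peaks just inside and just outside the intervals were as follows. The outermost DEAF1 peak at the 5′ end in replicate 1, at 693101 to 693152, had a fold of 2.62, and the outermost of KLHDC4, at 87798658 to 87798687, had 4.97. The next peaks beyond the 5′ end of DEAF1 were on the plus strand, 2.61 kb away in replicate 1 and 6.06 kb away in replicate 2, and those beyond its 3′ end were also on the plus strand, 5.10 and 4.98 kb away. Beyond the 5′ end of KLHDC4 the next listed peak was 64.0 kb away in both lists. Before that peak, 10 peak numbers were absent in replicate 1 and 3 in replicate 2. The distance thus holds for listed peaks only and does not show a stretch without called peaks. Beyond the 5′ end of ZC3H3 the next listed peak was 24.9 kb away in replicate 1 and 26.1 kb away in replicate 2. Within the 3 intervals both lists held 0 plus-strand peaks. No source used here states how strand was set, so this count is no measure of antisense RNA.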

How the data were processed

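Peaks are listed per library for 2 WT CLIP replicates. Per the submitters' processing notes, which give no roles, the build was hg19 and the tools included MACS2 2.1.1.20160309, Novoalign 3.09.00 and bedtools 2.25.0. The deposited lists give, for each peak, an unadjusted −log10 p, a score that is 10 times that value without its decimals, and a ratio, the fold over the background of the caller. All 3 are the authors' values and were used to describe or rank peaks within a list. Folds were also compared between the 2 peaks of a pair, and the lower fold ranked the pairs. These comparisons were not adjusted for the difference in median fold between the whole lists (3.12 in replicate 1 and 3.81 in replicate 2). No source used here states whether input served as control. The deposited pair list holds overlapping peaks of both lists and their shared bases, at least 50% of the replicate 1 peak.

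Rows repeating a peak on 1 strand were counted once. The 8 columns of the authors' count table match no sample label and were not used, so the planned edgeR test was not run. Pairs named were the 5 per gene with the highest lower fold. For single peaks, the highest-scoring, the widest and those nearest the gene ends were planned for naming. Other single peaks and the gene bins were picked after their values were seen. The genes, lists and choices were made with earlier results of these data known. Matching was tested on simulated data. Peak matching and intervals used scipy 1.17.1 and pandas 2.3.3 under Python 3.11.15, with numpy 2.4.6, and plots used matplotlib 3.10.9. Alternatives were other overlap rules, stronger peaks, a reduced list, strand ignored, 1 list left out and other rules for peaks of a gene.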

Additional observations from a re-analysis of the deposited data

How the results depend on the processing

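Of 63 recomputed values for 18 results, 52 kept within the replicate spread, the counting interval or 1.5 times the count, 11 moved and 0 reversed. Many of those that kept were bound to. With 2 lists, the value of either list alone always lies within the SD of their mean. Ignoring strand and the other rules for peaks of a gene returned the main values exactly. The number that kept is therefore no measure of robustness. With replicate 1 reduced to the length of replicate 2, the matched share of replicate 2 peaks was 46.7% in DEAF1, 54.8% in KLHDC4 and 12.5% in ZC3H3, since fewer peaks can match. With the stronger 50% of each list, pairs numbered 15 in DEAF1 and 4 in ZC3H3, and the ZC3H3 density was 0.212 peaks per kb. By the same cut the ZC3H3 median fold, as a mean of the lists, was 4.43. This was above the 4.36 of DEAF1, though in replicate 1 alone ZC3H3 lay below DEAF1. In KLHDC4, 62.2% of these stronger peaks lay in the 5′ 50% of the gene against 56.8% in the full lists. The median fold of DEAF1 pairs was 4.35 by the higher value, and that of KLHDC4 pairs 5.30 by the higher and 3.48 by the lower. Leaving out 1 list gave densities of 0.873 to 1.36 peaks per kb in DEAF1, 0.722 to 1.27 in KLHDC4 and 0.385 to 0.636 in ZC3H3. No paired analysis was possible because no column of the count table matches a sample label, and for that reason count normalization, count filters and count fits without a replicate were not run. Depth is unknown, so absence of a peak from a list sets no limit on binding.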

Other observations

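Peak numbering, strand and repeated rows were uniform within each gene. Peak numbers ran without a gap inside each gene, 70, 45, 74, 42, 66 and 40 consecutive numbers for as many peaks, although 25.6% of numbers were absent from the whole replicate 1 list and 15.2% from that of replicate 2. Between KLHDC4 and the next listed peaks, 20 numbers were absent on the 3′ side and 10 on the 5′ side in replicate 1, and 7 and 3 in replicate 2. Every KLHDC4 peak was written in 3 identical rows in both lists, and every DEAF1 and ZC3H3 peak in 1. Over the whole lists, peaks with consecutive numbers and starts within 1 kb had the same strand in 99.9% of cases in each replicate, and the same number of rows in 99.6%.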
